A study of Danio rerio with 6 samples.

Results

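Genes of yolk protein and lipid export were followed in larvae that lack the cell adhesion gene dscaml1 and in wild-type siblings. They were taken by gene symbol from the table of all genes, and all 8 were found among its 31901 genes. The 8 genes comprise 5 vitellogenin genes (vtg1, vtg2, vtg4, vtg5 and vtg7) and the genes mttp, pla2g12b and ctsla. RNA-seq libraries came from 3 pools of wild-type larvae and 3 pools of dscaml1 mutant larvae of 3.5 to 4 days post-fertilization (dpf), with 6 to 11 larvae per pool. All larvae were untreated, were reared in a standard light cycle and descended from heterozygous parents, and the mutants (dscaml1−/−) were homozygous for a single allele, a frameshift caused by a small deletion. The labels give whole animals as the source, and the methods describe RNA from the anterior part of each larva with the rest kept for genotyping.

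The yolk of a zebrafish larva was laid down in the egg, mainly as vitellogenins that the mother's liver makes under the control of estrogen. A multinucleate layer around the yolk, the yolk syncytial layer, digests this store in lysosomes and packs its lipid onto apolipoprotein B for export to the blood. After the yolk stage the liver and the intestine take over the assembly of these B-type lipoproteins. In bulk RNA of pooled larvae, fewer cells of a type and less RNA per cell cannot be told apart.

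Wild-type libraries held 21863982 to 23516860 reads and mutant libraries 18725190 to 20476688, as recovered from the scaled values. dscaml1 had 333 to 395 normalized counts (reads divided by 1 size factor per library) in wild type and 336 to 400 in mutants, and since the allele is a frameshift its transcript level checks no genotype label. The replicate 2 libraries of both genotypes stood apart from the other 4, with 31.5% of all genes called between them and replicates 1 and 3. The comparison of genotypes therefore used limma on log2(normalized count + 1) with a term for replicate 2. It covered 21302 genes, those averaging 5 normalized counts or more, and a gene was called at a Benjamini-Hochberg adjusted p under 0.05. Nothing in the labels ties replicate 2 to a clutch or a day, so p-values here reflect only how much these pools varied.

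Of the 8 genes, 4 passed the filter on low values (mttp, pla2g12b, ctsla and vtg7), and 0 of these 4 were called between genotypes. Over all genes tested the share called was 0.0986%, with 0.0751% lower and 0.0235% higher in mutants. At an unadjusted p under 0.05 from limma, 2 of the 4 were lower in mutants (mttp and pla2g12b) and 0 were higher, against 7.90% of all genes lower. edgeR on the recovered reads called 0 of the 4, and DESeq2 on the same reads called 2 of the 4 lower, against 1.82% of all genes. DESeq2 with the replicate number as a block called the same 2 genes, against 2.05% of all genes. In replicate 2 compared with replicates 1 and 3, 3 of the 4 were called (mttp and ctsla lower, vtg7 higher), against 17.8% of all genes lower and 13.7% higher. Because replicate 2 was singled out with these data known, the values for replicate 2 describe these pools and support no further inference.

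**Figure D1:**
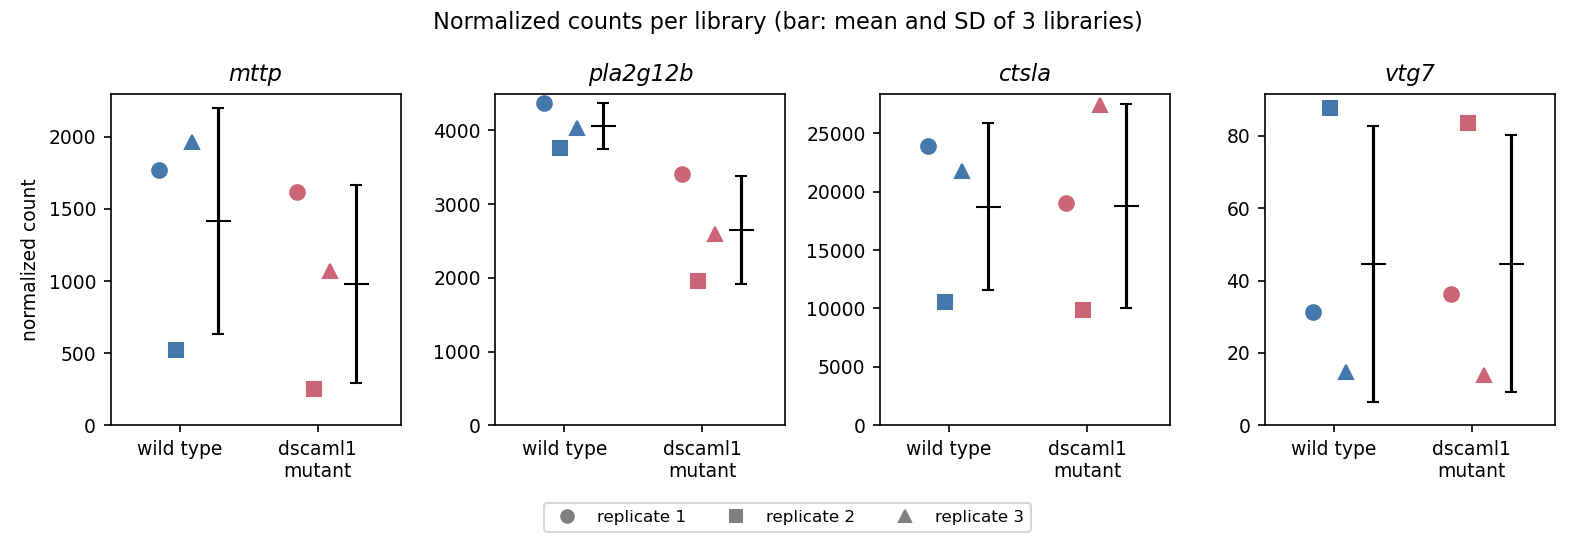
Normalized counts (y axes, from 0) of mttp, pla2g12b, ctsla and vtg7 in the 3 wild-type and 3 dscaml1 mutant libraries, with the mean and SD of each genotype as bars. The 3 mutant libraries lie below the wild-type libraries for pla2g12b, and the square symbols of replicate 2 lie lowest for mttp and ctsla and highest for vtg7.

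mttp encodes the large subunit of the microsomal triglyceride transfer protein, which loads lipid onto nascent apolipoprotein B in the endoplasmic reticulum. The gene (ENSDARG00000008637) spans 12105901 to 12126625 of chromosome 1 (GRCz11 coordinates throughout). Wild-type pools 1, 2 and 3 gave 1773, 522 and 1963 normalized counts, and mutant pools 1, 2 and 3 gave 1616, 252 and 1073. The genotypes overlapped, because both replicate 2 libraries were below the other 4, as they were for 26.1% of all genes. Within each replicate number the mutant was lower, with ratios of mutant to wild type of 0.911, 0.483 and 0.547 in replicates 1, 2 and 3, and 20.6% of all genes were lower in all 3 pairs. Mean counts (± SD over 3 pools) were 1419 ± 783 for wild type and 980 ± 687 for mutants. The log2 fold change was −0.68 (standard error 0.18, 95% interval −1.11 to −0.26), with an adjusted p of 0.185 from limma, so mttp was not called. With DESeq2 on the recovered reads and the same terms the adjusted p was 0.0469, and with edgeR 0.219. The replicate 2 term was chosen with these data known, and the interval takes it as given. With limma and no such term the standard error of the same estimate was 0.81.

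The spread of mttp among pools was larger than its difference between genotypes. In replicate 2 the count was 0.279 times the mean of replicates 1 and 3 in wild type and 0.188 times in mutants. The log2 difference of replicate 2 was −2.11 ± 0.19 (standard error), with a limma adjusted p of 0.000286. Without the replicate 2 libraries the log2 fold change between genotypes was −0.50 (adjusted p = 0.422 from limma).

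pla2g12b encodes a member of the phospholipase A2 family without catalytic activity, which in zebrafish and mouse is needed to add lipid to growing B-type lipoproteins. The gene (ENSDARG00000015662) lies on chromosome 13 from 4671698 to 4683595. Wild-type pools 1, 2 and 3 gave 4376, 3753 and 4033 normalized counts, and mutant pools 1, 2 and 3 gave 3412, 1952 and 2596. The highest mutant pool was below the lowest wild-type pool, a pattern that 4.55% of all genes tested shared. The means were 4054 ± 312 and 2653 ± 731 (SD, n = 3 pools each), so the mutant mean was 65.4% of that of wild type. The log2 fold change was −0.65 (standard error 0.14, 95% interval −0.98 to −0.31), with an adjusted p of 0.145 from limma. DESeq2 on the recovered reads gave an adjusted p of 0.0120, and edgeR gave 0.171. With limma and no replicate 2 term the standard error of the same estimate was 0.22.

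pla2g12b was not called in replicate 2, where its log2 difference was −0.39 ± 0.15 (standard error), with a limma adjusted p of 0.0910. Leaving out 1 library gave −0.61 to −0.16, the lowest without wild-type and the highest without mutant replicate 2. Replicate 2 stood at 0.893 times the mean of replicates 1 and 3 in wild type and at 0.650 times in mutants. Whether the replicate 2 differences of the 2 genes differ from each other was not tested. An exact two-sided permutation test of 3 libraries against 3, which cannot give less than 0.1, gave p = 0.1 for pla2g12b and p = 0.5 for mttp, and both came to an adjusted p of 0.8 over the 8 genes.

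**Figure D2:**
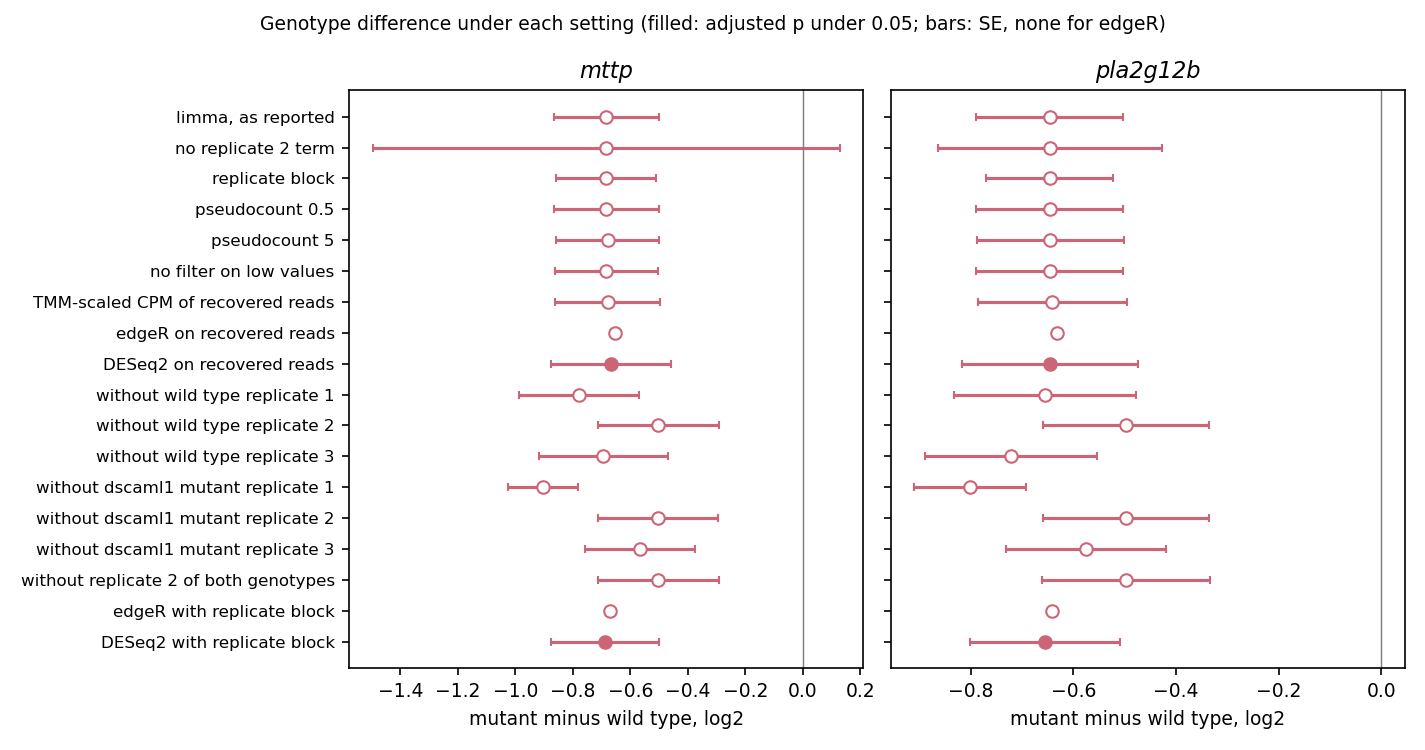
Log2 difference between mutant and wild-type libraries (x axes) for mttp and pla2g12b under each model, scaling or set of libraries (y axis), with standard errors as bars where the tool gives them. All estimates lie below 0, and only the DESeq2 fits are filled, the mark of an adjusted p under 0.05.

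ctsla encodes cathepsin L, a lysosomal cysteine protease, and proteases of this class cut vitellogenin-derived yolk proteins. The gene (ENSDARG00000007836) lies on chromosome 5 from 44804791 to 44810920. Wild-type pools 1, 2 and 3 gave 23882, 10523 and 21758 normalized counts, and mutant pools 1, 2 and 3 gave 19018, 9875 and 27381. The genotypes overlapped fully, and mutant replicate 3 was the highest of the 6 libraries. The means were 18721 ± 7179 and 18758 ± 8756 (SD, n = 3 pools each). The log2 fold change was −0.03 (95% interval −0.36 to 0.30, adjusted p = 0.949 from limma). Its standard error was 0.14, and 0.47 with limma and no replicate 2 term. In replicate 2 the count was 0.461 times the mean of replicates 1 and 3 in wild type and 0.426 times in mutants, and the log2 difference was −1.16 ± 0.15 (standard error), with a limma adjusted p of 0.00146.

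The vitellogenin genes were close to the limit of detection, apart from vtg7. Of the 7 vitellogenin genes in the table, 6 (vtg1, vtg2, vtg4, vtg5, vtg6 and vtg7) lie on chromosome 22 from 24730965 to 24880824, a stretch of 149.9 kb, and vtg3, which encodes a vitellogenin without the phosvitin domain, lies on chromosome 11. Neighbouring vitellogenin genes are close copies, and the sources used here do not say how reads that match several of them were counted. Their counts are therefore uncertain, in level and in how reads were shared among them.

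vtg7 (ENSDARG00000092419, chromosome 22 from 24851227 to 24858050) had 31.4, 87.6 and 14.8 normalized counts in wild-type pools 1, 2 and 3, and 36.4, 83.7 and 14.0 in mutant pools 1, 2 and 3. The values followed the replicate number and not the genotype, with ratios of mutant to wild type of 1.16, 0.955 and 0.946 within the 3 pairs. The means were 44.6 ± 38.2 and 44.7 ± 35.6 (SD, n = 3 pools each), and the log2 fold change was 0.02 (95% interval −0.91 to 0.95, adjusted p = 0.988 from limma). The standard error of this estimate was 0.40, and 0.83 with limma and no replicate 2 term. Replicate 2 held 3.80 times the mean of replicates 1 and 3 in wild type and 3.32 times in mutants. Its log2 difference was 1.90 ± 0.42 (standard error), with a limma adjusted p of 0.0129, and 24.6% of all genes tested likewise had both replicate 2 libraries above the other 4. Without wild-type replicate 2 this adjusted p was 0.112, and without mutant replicate 2 it was 0.125, since 1 library then stood alone for replicate 2.

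The other 4 vitellogenin genes of the list had means under 5 normalized counts and were not tested. vtg2 (ENSDARG00000055809) received 8, 4 and 2 reads in wild-type pools 1, 2 and 3, and 2, 2 and 1 reads in mutant pools 1, 2 and 3. vtg1 (ENSDARG00000092233) received 2, 2 and 4 reads in wild type and 1, 3 and 0 in mutants. vtg5 (ENSDARG00000092126) received 1, 1 and 3 reads in wild type and 6, 2 and 2 in mutants. The ranges of the genotypes overlapped for all 3 genes, and no difference was detectable at this depth. With no filter on low values, limma gave log2 fold changes of −0.57 for vtg1, −0.72 for vtg2, 0.11 for vtg4 and 0.67 for vtg5, with adjusted p of 0.670, 0.560, 0.915 and 0.572.

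vtg4 was read in replicate 2 alone. It (ENSDARG00000078429) had 4 reads in wild-type replicate 2 and 5 in mutant replicate 2, and 0 reads in each of the other 4 libraries, where a count of 0 allows up to 3 reads. Its neighbour vtg6 showed the same pattern with 9 reads in each replicate 2 library and 0 in the others. Among all genes tested, which leave out vtg4 and vtg6, 24.6% had both replicate 2 libraries above the other 4. The share of genes read in replicate 2 alone was not counted. vtg7 also had its highest counts in the replicate 2 libraries, and how reads were shared among the copies is not known. Over the library totals, and against 3 reads set for the other 4 libraries together, vtg4 was 6.22-fold and vtg6 12.4-fold higher in replicate 2. These folds allow for counting error in the counts of 0 only, and not in the 9 and 18 reads of replicate 2. Of the reads assigned to the 7 vitellogenin genes, vtg7 held 71.4% to 87.4% in every library. These shares are of reads, with no correction for length.

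**Figure D3:**
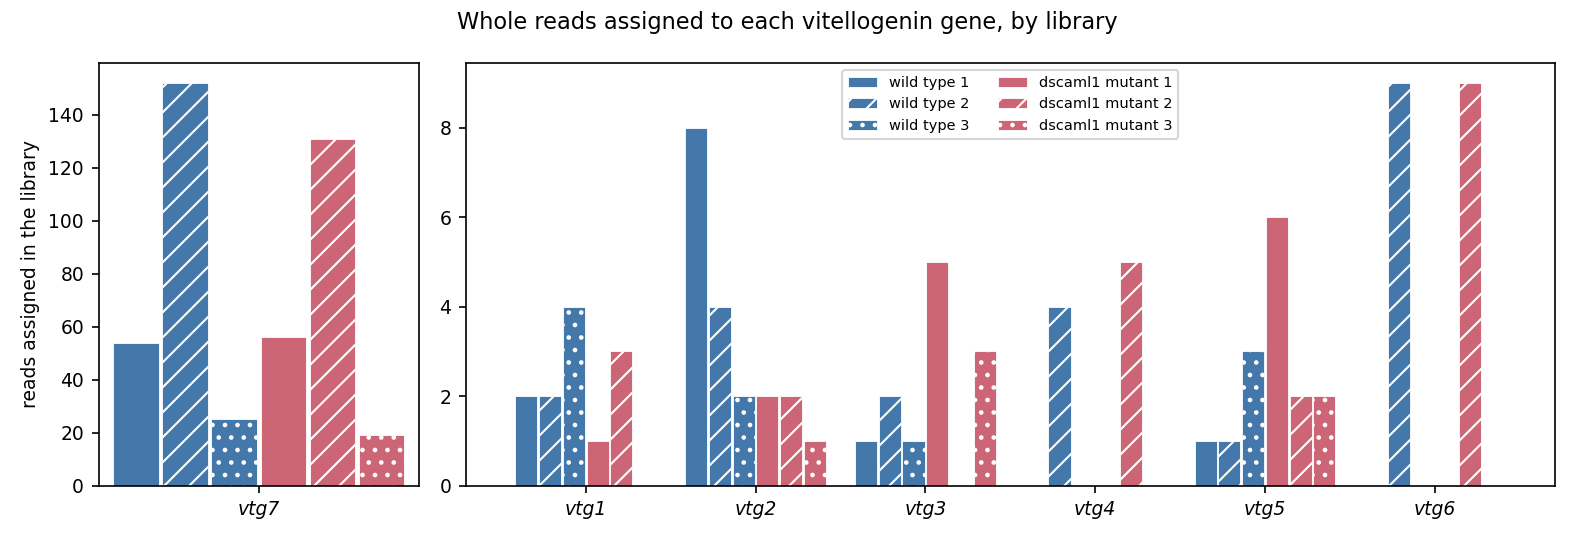
Whole reads assigned to each vitellogenin gene (y axes) in each of the 6 libraries, with vtg7 on its own axis because it received 19 to 152 reads and the other genes 0 to 9. Bars with slanted lines are replicate 2, which holds the highest vtg7 counts of each genotype and every read of vtg4 and vtg6. Dotted bars are replicate 3.

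Genes that respond to estrogen or carry its signal were measured beside the vitellogenins. Of 10 such genes, 7 were tested and 0 were called between genotypes with limma (0 at an unadjusted p under 0.05, and 0 with edgeR or DESeq2). esr1, an estrogen receptor gene, had 2.90 to 5.77 normalized counts in wild type and 3.68 to 11.5 in mutants. cyp19a1b, the gene of brain aromatase, which responds to estrogen in zebrafish, had a log2 fold change of 0.08 (adjusted p = 0.947 from limma). Its entry here is annotated as an unprocessed pseudogene and received 70 reads over the 6 libraries, so it is a weak readout. In replicate 2 these genes went both ways. The receptor genes esr2a and esr2b were called lower, by log2 differences of −1.57 and −1.03 (adjusted p = 0.0124 and 0.0113 from limma). esr1, gper1, a membrane estrogen receptor gene, and cyp19a1b, 3 of the 7, had both replicate 2 libraries above the other 4, against 24.6% of all genes. esr1 averaged 5.21 normalized counts over all libraries and 3.51 outside replicate 2. It thus passed the filter on low values only through replicate 2, and its place in this count was partly set by the filter. The log2 differences of esr1, gper1 and cyp19a1b (1.03, 0.74 and 0.46) were not called (adjusted p = 0.102, 0.145 and 0.387 from limma). These 3 genes had low counts, with 50, 124 and 70 reads over the 6 libraries.

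mttp and pla2g12b act with apolipoprotein B, and all 3 genes of apolipoprotein B had lower mean counts in mutants. apobb.1 (ENSDARG00000022767, chromosome 20 from 31269778 to 31285980), the apolipoprotein B gene of the yolk syncytial layer, had 74045, 70066 and 90582 normalized counts in wild-type pools 1, 2 and 3, and 54719, 27925 and 49319 in mutant pools 1, 2 and 3. The mutant pools were again all below the wild-type pools, as for 4.55% of all genes tested. The log2 fold change of apobb.1 was −0.88 ± 0.16 (standard error), with a limma adjusted p of 0.119. apobb.2 had 56.9, 420 and 31.3 in wild type and 7.15, 155 and 14.7 in mutants, and the log2 fold change was −1.77 ± 0.33 (standard error), with a limma adjusted p of 0.119. On the recovered reads DESeq2 called both genes (adjusted p = 0.000175 for apobb.1 and 8.04e-05 for apobb.2), and edgeR called neither (adjusted p = 0.120 for each). apoba was called lower by edgeR and DESeq2 (adjusted p = 0.0352 and 1.6e-20). It was also called by limma, with a log2 fold change of −1.41 (adjusted p = 0.0226, and 0.0274 with the replicate number as a block). This call was lost without replicate 2 of both genotypes (log2 fold change −1.27, adjusted p = 0.134 from limma), with no replicate 2 term, and on leaving out any single library other than mutant replicate 1 (adjusted p = 0.0549 to 0.128). In replicate 2, apoba and apobb.2 were higher by log2 differences of 0.75 and 3.53 (adjusted p = 0.00336 and 0.000385 from limma), and the call of apoba was lost without wild-type replicate 2 (adjusted p = 0.0534). The value for apobb.1 was −0.56 (adjusted p = 0.0421 from limma) and rested on single libraries. It was −0.23 without mutant replicate 2 (adjusted p = 0.469) and −0.90 without wild-type replicate 2, and it was not called with no filter on low values or when wild-type replicate 3 or either of mutant replicates 1 and 3 was left out (adjusted p = 0.0657 to 0.0961).

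Over the list of B-type lipoprotein assembly and secretion, which holds these genes and mttp and pla2g12b, 23 genes were tested. apoba was the 1 gene called lower and 0 were called higher, with a median log2 fold change of −0.21, against 0.01 over all genes tested. Without replicate 2 the median was −0.25. At an unadjusted p under 0.05 from limma 7 of the 23 were lower, against 7.90% of all genes, and 0 higher, and DESeq2 called 6 lower, against 1.82%. Besides the genes above, creb3l3a, a transcription factor gene that in zebrafish and mouse regulates lipoprotein metabolism, had the next lowest p, with 117 to 141 normalized counts in wild type and 57.4 to 82.5 in mutants (log2 fold change −0.91, limma adjusted p 0.127). The seventh gene lower at an unadjusted p under 0.05, beside the apolipoprotein B genes, mttp, pla2g12b and creb3l3a, was sec24d, a gene of the COPII coat that carries cargo out of the endoplasmic reticulum. It had 910 to 1032 normalized counts in wild type and 647 to 908 in mutants, with a log2 fold change of −0.32 (adjusted p = 0.350 from limma). sar1b, whose product starts the assembly of that coat, had a log2 fold change of −0.21 (adjusted p = 0.490 from limma).

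In replicate 2, limma called 5 of the 23 genes lower and 6 higher, against 17.8% and 13.7% of all genes. dgat2, which encodes the last enzyme of triglyceride synthesis, was lower by a log2 difference of −2.73 and dgat1a by −1.74, beside −2.11 for mttp. The adjusted p from limma was 0.000257 for dgat2 and 0.00135 for dgat1a. tm6sf2, which promotes lipid loading of lipoproteins in the mouse liver, was higher by 2.26 (adjusted p = 0.00251 from limma), beside 3.53 for apobb.2.

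**Figure D4:**
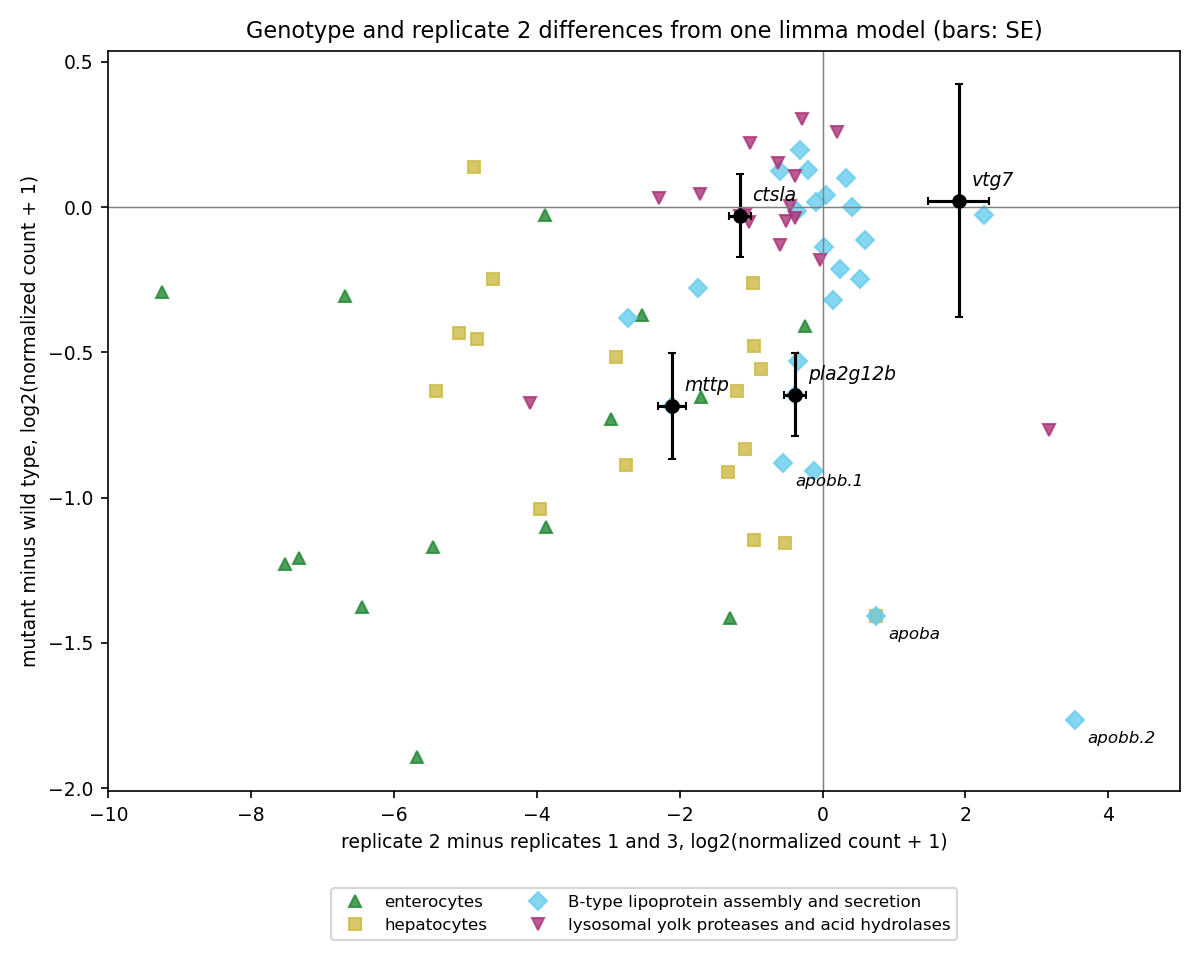
Log2 difference between replicate 2 and replicates 1 and 3 (x axis) and between mutant and wild type (y axis) from 1 limma model, for the tested genes of 4 lists, with mttp, pla2g12b, ctsla and vtg7 in black with standard errors. mttp lies at −2.11 and −0.68, among hepatocyte and enterocyte genes that are negative on both axes, whereas ctsla and vtg7 lie close to 0 between genotypes.

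Other apolipoproteins and the lipases and receptors that act on lipoproteins in the blood had 0 genes called between genotypes with limma and 0 with edgeR. Of 9 apolipoprotein genes tested, 4 were lower at an unadjusted p under 0.05, against 7.90% of all genes. DESeq2 called 2 lower, against 1.82%. apoa1b, which encodes apolipoprotein A-I, had 55176 to 104878 normalized counts in wild type and 23487 to 66203 in mutants (log2 fold change −0.83, limma adjusted p 0.110). apoea had a log2 fold change of −0.44 (adjusted p = 0.138). Another 6 genes of this list (apoa4b.1, apoa4b.2, apoa4b.3, apoc1, apoc4 and apoeb) are listed at 0 in all 6 libraries. Of 13 lipase and receptor genes tested, lrp2a, the gene of the endocytic receptor megalin, had the lowest p, with a log2 fold change of −1.05 (adjusted p = 0.188 from limma). At an unadjusted p under 0.05, 3 of the 13 were lower, against 7.90% of all genes, and DESeq2 called 1 lower, against 1.82%. lpl, the gene of lipoprotein lipase, had a log2 fold change of 0.04 (adjusted p = 0.918) and was lower in replicate 2 by −1.40.

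ctsla was one of 17 tested genes of lysosomal proteases and acid hydrolases, of which 0 were called between genotypes with limma, edgeR or DESeq2, and 0 passed an unadjusted p of 0.05 with limma. The median log2 fold change of the list was −0.03. In replicate 2, 11 of the 17 were called lower and 1 higher, against 17.8% of all genes lower, with a median log2 difference of −0.60. lgmn, the gene of the lysosomal protease legumain, had 1759 and 1699 normalized counts in the replicate 2 libraries and 7976 to 9455 in the other 4, a log2 difference of −2.29 (adjusted p = 1.62e-05 from limma). The gene called higher was a cathepsin L relative, ctslb (ENSDARG00000039173), with 0 to 5.91 normalized counts outside replicate 2 and 18.5 and 20.8 within it. Its mean was 7.87 over all libraries and 1.99 outside replicate 2. It thus passed the filter on low values only through replicate 2, and its call there is no evidence of a difference. A second entry of ctslb (ENSDARG00000074306) is listed at 0 in all 6 libraries, and how reads were shared between the 2 entries is not known.

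Markers of the yolk syncytial layer, of hepatocytes and of enterocytes were measured because mttp, pla2g12b and the apolipoprotein B genes belong to a pathway that runs in all 3. The lists share genes, and 10 of the 17 yolk syncytial layer genes are also in other lists. Without the 8 genes, 12 yolk syncytial layer genes were tested. tfa was called lower, against 0.0751% of all genes, and all 12 had negative log2 fold changes, against 10492 of the 21302 genes tested. DESeq2 called 6 of the 12 lower, against 1.82% of all genes, and edgeR called 1. The median log2 fold change of the 12 was −0.69, and −0.61 without replicate 2. In replicate 2, 10 of the 12 were called lower and 0 higher, against 17.8% and 13.7% of all genes, with a median log2 difference of −0.92. Their summed level was 170908 to 252474 normalized counts in wild type and 81262 to 162437 in mutants. Another 2 genes of this list, apoa4b.1 and apoc1, are listed at 0 in all libraries.

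Of 17 hepatocyte genes tested, 4 were called lower (apoba, cp, serpina1 and tfa) and 0 higher, against 0.0751% of all genes lower, with a median log2 fold change of −0.63, and −0.40 without replicate 2. The calls of tfa and apoba are the same calls counted above for the yolk syncytial layer and for B-type lipoprotein assembly. Without any 1 library of replicate 2 or 3, limma called 0 genes in the whole table, these 4 included, with 1911 to 2565 genes at an unadjusted p under 0.05. With all libraries, DESeq2 called 8 of the 17 lower, against 1.82% of all genes, and edgeR called 4. The summed level of the list was 45119 to 74723 normalized counts in wild type and 20347 to 44623 in mutants. fabp10a, the liver fatty acid-binding protein gene that defines hepatocytes in zebrafish, had 5253, 214 and 5447 normalized counts in wild-type pools 1, 2 and 3, and 4554, 130 and 4020 in mutant pools 1, 2 and 3 (log2 fold change −0.45, limma adjusted p 0.178). All 17 were called in replicate 2, 16 of them lower, against 17.8% of all genes, and apoba was the 1 higher. The median log2 difference of the list there was −1.32, with −0.52 for tfa, −0.96 for cp, −1.09 for serpina1 and −4.84 for fabp10a.

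Of 14 enterocyte genes tested, 0 were called between genotypes with limma or edgeR. At an unadjusted p under 0.05, 9 were lower, against 7.90% of all genes, and DESeq2 called 4, against 1.82%. The median log2 fold change was −0.92, and −0.71 without replicate 2. Their summed level was 50735 to 109412 normalized counts in wild type and 30621 to 86398 in mutants, and apoa4b.1 and apoa4b.2 of this list are listed at 0. The lowest sum of each genotype was that of replicate 2, where apoa1a alone gave 46937 in wild type and 28225 in mutants. apoa1a was the 1 gene of the list not called in replicate 2 (log2 difference −0.25), so these sums do not follow the other enterocyte genes there. fabp2, the intestinal fatty acid-binding protein gene, had 10658, 1802 and 18178 in wild-type pools 1, 2 and 3, and 9712, 1067 and 7399 in mutant pools 1, 2 and 3. vil1, the gene of the brush border protein villin, had the lowest p (log2 fold change −1.89, limma adjusted p 0.119). In replicate 2, 13 of the 14 were called lower, against 17.8% of all genes, with a median log2 difference of −4.67. The part of liver, intestine and yolk in the lower mttp and pla2g12b values was not tested.

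Over the 6 libraries, log2(normalized count + 1) of mttp correlated with that of ctsla (Pearson r = 0.857) and pla2g12b (r = 0.745), and vtg7 ran opposite to ctsla (r = −0.923) and mttp (r = −0.767). pla2g12b and vtg7 had r = −0.267. These values are a description of 6 libraries that share the contrast of replicate 2. Among the 13420 genes averaging 100 or more, the 5 with the highest r to mttp (0.998 each) were slc37a4a, a glucose-6-phosphate transporter gene, atp5f1b, myrfl, zgc:158846 and cldn15la, a claudin gene. Those for pla2g12b, with r from 0.978 to 0.989, were hoga1, picalma, slc22a23, rad54l2 and phldb2b. Those for ctsla (0.992 to 0.996) were kcnj1a.6, fosl2, mylk3, phkg2 and sucla2. Those for vtg7 (0.993 to 0.998) were ints9, gemin6, eef1e1, nos1 and alox12.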

How the data were processed

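The deposited signal values are gene counts scaled by the authors with 1 size factor for each library (normalized counts). The submitters' processing notes name TopHat2, HISAT2, HTSeq and GRCz11, and their versions and counting settings were not found in the sources used here. Libraries were strand-specific. The deposited fold changes, p-values and mean over libraries are the authors' own and were not used, nor were 3 short tables selected by them, and 0 columns of per-sample values were unmapped. Division by the value of 1 read gave whole reads for 100% of values (tolerance 0.001 reads). All 8 symbols matched 1 gene each.

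The main test was limma-trend (limma 3.58.1, R 4.3.3) on log2(value + 1), which understates changes of low genes, with genotype and a replicate 2 term (3 residual degrees of freedom, median of 4.65 prior). edgeR 4.0.16 (quasi-likelihood) and DESeq2 1.42.0 (likelihood ratio) ran on the recovered reads. Only the limma fit was tested on simulated counts, with known changes set in genes of higher counts. That test did not cover edgeR, DESeq2 or genes of low counts. Other steps used Python 3.11.15 (matplotlib 3.10.9, scipy 1.17.1, pandas 2.3.3, numpy 2.4.6).

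The pairing of libraries by replicate number comes from the titles. Deviations from the genotype means correlated by 0.651, 0.856 and 0.699 between libraries numbered 1, 2 and 3 over 21302 genes. Between wild type 3 and mutant 1 the value was 0.500, and between wild type 1 and mutant 3 it was 0.346. Deviations cancel out within a genotype, so the replicate 2 contrast alone makes libraries 1 and 3 correlate across genotypes. That contrast does not set how the same-number and crossed values rank, and both same-number values (0.651 and 0.699) were above both crossed values. The ranking goes with pairing by number, but it rests on 4 libraries and does not settle how libraries 1 and 3 pair.

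The genes and 9 gene lists, matched by symbol (6 of 128 symbols were not matched), were chosen with earlier results of these data known. The text names the 8 genes, other vitellogenin and apolipoprotein B genes, list genes called or among the 4 with the lowest p, and the genes most correlated with 4 of them. List genes outside this rule, which were chosen after their values were seen, are esr1, esr2a, cyp19a1b, sar1b, sec24d, dgat1a, dgat2, tm6sf2, lpl, lgmn and fabp10a. Promoters and protein sequences were not analysed here. Alternatives were another pseudocount, no filter, TMM scaling, other tools and covariates, and leaving out libraries.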

Additional observations from a re-analysis of the deposited data

How the results depend on the processing

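The number of genes called between genotypes was 21 (5 higher, 16 lower) and changed with the model. It was 0 with no replicate 2 term (791 at an unadjusted p under 0.05 from limma), 0 without replicate 2 of both genotypes (2550), 47 with the replicate number as a block, and 581 with DESeq2. With the replicate block it was 50 with edgeR and 652 with DESeq2, both fits added after seeing the data. Leaving out 1 library gave 0 to 12 calls. It gave 0 without replicate 2 or 3 of either genotype, 3 when wild-type replicate 1 was left out and 12 for mutant replicate 1. The replicate block changed no call of the 8 genes with limma or edgeR.

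mttp and pla2g12b were lower in mutants under all 17 alternatives. With DESeq2 the log2 fold change was −0.67 for mttp and −0.65 for pla2g12b, and with DESeq2 and the replicate block −0.69 and −0.65 (adjusted p = 0.0152 and 0.00106), and these passed 0.05. With no replicate 2 term both had an adjusted p of 1. Leaving out 1 library gave −0.90 to −0.50 for mttp and −0.80 to −0.50 for pla2g12b. The log2 fold change of ctsla was 0.0015 without replicate 2 of both genotypes and −0.19 to 0.11 with 1 library left out, and that of vtg7 was −0.37 to 0.39. Neither was called.

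The genes called in replicate 2 numbered 6708, and 1869 to 6202 with 1 library left out (3135 when wild-type replicate 2 was left out, 1869 when mutant replicate 2 was). The log2 difference of vtg7 in replicate 2 was then 1.63 to 2.2, of mttp −2.38 to −1.84, of ctsla −1.27 to −1.04 and of pla2g12b −0.61 to −0.16. Without a replicate 2 library, the lone one is assumed to vary like the others. vtg1, vtg2, vtg4 and vtg5 fell under the filter and were fitted only without it (log2 fold changes −0.57, −0.72, 0.11 and 0.67, not called). In that fit the log2 difference of vtg4 in replicate 2 was 1.90. It rests on 4 and 5 reads in the replicate 2 libraries and 0 in each other library, too few for a test. Depth limits the vitellogenins other than vtg7, with 9 to 19 reads each over the 6 libraries.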
